A study of Mus musculus with 9 samples.

Results

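The 5 genes described here, Oas1a, Oas2, Oas3, Oasl1 and Oasl2, belong to the mouse oligoadenylate synthetase (OAS) family. They were taken by symbol from a table of 17565 genes measured in 9 RNA-sequencing libraries of MS1 cells, an established mouse endothelial cell line from pancreas. They were chosen by their CPM differences between the groups in these same libraries, so those differences are given as a description and carry no p-value. All 9 cultures were made with a lentiviral pCDH backbone. The 3 libraries labelled TAZ-CAMTA1 came from cells stably expressing a TAZ-CAMTA1 insert, the fusion protein known from epithelioid hemangioendothelioma. The 3 libraries labelled TAZ4A came from cells expressing an insert written TAZS4A, a form of the Hippo pathway coactivator TAZ, and the 3 libraries labelled Ctrl came from cells carrying pCDH-puro. The labels do not say whether the 3 libraries of a group came from separate cultures or infections, so the spread between them, and every p-value below, may be technical.

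OAS proteins are sensors of double-stranded RNA. When bound to it, the active members make short 2′-5′-linked oligoadenylates (2-5A) from ATP, which act as second messengers of antiviral defence. The genes are classical targets of type I interferon, which acts through the receptor chains Ifnar1 and Ifnar2, the kinases Jak1 and Tyk2 and a complex that includes Stat2 and Irf9 and binds the interferon-stimulated response element (ISRE). Not all family members make 2-5A. Mouse Oasl1 lacks this activity and is known to restrain translation of Irf7 mRNA, whereas mouse Oasl2 keeps it.

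In the GENCODE vM21 annotation of GRCm38, all 5 genes lie on chromosome 5. Oasl2 (chr5:114896936-114912234) and Oasl1 (chr5:114923240-114937915) are neighbours on the plus strand. Oas2 (chr5:120730333-120749853), Oas3 (chr5:120753098-120777661) and Oas1a (chr5:120896256-120907521) lie in the Oas cluster on the minus strand. Other Oas1 genes fill the space between Oas3 and Oas1a. The nearest of them, Oas1g (chr5:120876142-120887613), is a near copy of Oas1a: 57.6% of all 50-base stretches of the annotated Oas1a exons also occur in Oas1g. The corresponding share was 0% for Oas2 and for Oasl1, 0.31% for Oas3 and 0.14% for Oasl2 against all other genes.

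Promoter sequences are shown to display the near identity of Oas1a and Oas1g before the start and the places of the interferon-response letters. Whether either bears on the levels of the genes was not tested. RefSeq windows of 300 bases (250 before to 50 after the transcription start, GRCm38.p6) were held for 4 of the 5 genes, all but Oas2. The ISRE letters searched, on both strands, were GAAA, any 2 bases and GAAA again, and matches may overlap. They occur in 3.43% of the 32817 windows of all genes. The 120 bases before the start follow, 5′ to 3′, with ISRE matches in capitals, for Oas1a (chr5:120907526-120907645, minus strand), its near copy Oas1g (chr5:120887614-120887733, minus strand) and Oas3 (chr5:120777660-120777779, minus strand).
Oas1a: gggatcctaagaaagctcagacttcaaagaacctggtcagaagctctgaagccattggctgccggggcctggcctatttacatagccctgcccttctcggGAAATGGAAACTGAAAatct
Oas1g: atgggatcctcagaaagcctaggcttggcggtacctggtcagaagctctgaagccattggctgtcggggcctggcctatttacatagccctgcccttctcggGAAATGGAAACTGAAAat
Oas3: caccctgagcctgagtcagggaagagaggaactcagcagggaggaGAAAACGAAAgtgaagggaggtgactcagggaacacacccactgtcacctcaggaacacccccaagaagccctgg

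The capitals of Oas1a and of Oas1g are 2 overlapping matches close to the start, and those of Oas3 are 1 match that begins 75 bases before it. Over 250 bases before the start, Oas1a and Oas1g were identical at 82.8% of aligned positions, while the other pairs among Oas1a, Oas1g, Oas3, Oasl1 and Oasl2 ranged between 41.5% and 48.2%. Oasl1 and Oasl2 hold no ISRE match in this window. The shorter interferon regulatory factor core AANNGAAA, also searched on both strands and present in 23.9% of all windows, occurs 3 times in Oasl1. These matches are in capitals in bases 190 to 71 before its start (chr5:114923050-114923169, plus strand).
Oasl1: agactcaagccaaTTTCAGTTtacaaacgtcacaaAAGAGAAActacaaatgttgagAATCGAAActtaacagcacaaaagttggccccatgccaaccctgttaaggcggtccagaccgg

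The core also occurs in Oas1a, where both matches overlap the ISRE matches, and in Oas3, where 1 of 2 matches does, and not in the Oasl2 window. GGAATG, the core letters of the TEAD factors through which TAZ reaches DNA, occurs in 14.7% of all windows and in 0 of the 4 windows of these genes. The motifs were chosen with the sequences in view, and no match or absence in so short a window says anything about what binds there.

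The libraries held between 21966004 and 34224715 reads assigned to genes. TAZ-CAMTA1 replicate 2 stood apart: over all genes it correlated at 0.963 and 0.962 with the other two libraries of its group, which correlated at 0.997 with each other. Its ribosomal protein genes took 3.86% of reads, against 1.76% to 2.04% in the other 8 libraries. Values without it are therefore given for the OAS genes in which it was farthest from the others, and for the pathway genes below whose called difference it moved by over 1.5 times. Endogenous and inserted transcripts are not separated in the table: Camta1 read 13.4, 12.5 and 13.5 CPM (reads of the gene scaled to the size of its library) in TAZ-CAMTA1 libraries, 5.20, 4.74 and 4.79 CPM in libraries labelled TAZ4A and 5.11, 3.41 and 3.63 CPM in Ctrl libraries. Wwtr1, the mouse gene for TAZ, read 492, 328 and 491 CPM in TAZ-CAMTA1 libraries, 319, 320 and 335 CPM in libraries labelled TAZ4A and 545, 536 and 570 CPM in Ctrl libraries. Wwtr1 was thus lowest on average under the TAZ4A label (log2 fold change from Ctrl -0.76 ± 0.15 SE, limma-trend adjusted p = 0.00571), which goes against what an added TAZ insert would give if its reads were counted here. Whether the insert is a mouse or a human sequence is not stated, and every direction below that involves TAZ4A rests on the label. The 8 endothelial markers examined, Pecam1 and Cdh5 among them, were each above 1 CPM on average in every group, but were not level. Their summed level was 8635.2 to 10628.5 CPM in TAZ-CAMTA1, 6182.5 to 6374.5 CPM in TAZ4A and 9172.2 to 9506.2 CPM in Ctrl libraries. The sum was thus lower in every TAZ4A library than in any library of the other groups.

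All 5 genes were at their highest in the libraries labelled TAZ4A, and 4 of them, all but Oas1a, were at their lowest in TAZ-CAMTA1 libraries. The span between the groups was widest for Oas2 and Oas3, which were close to silent in TAZ-CAMTA1 and Ctrl cells, and narrowest for Oasl1, which was abundant in all 3 groups. In each of the 3 comparisons and for each of the 5 genes, no library of one group overlapped the range of the other. The same held, in either direction, for 47.4% of all 12350 tested genes in TAZ-CAMTA1 against Ctrl, 63.2% in TAZ4A against Ctrl and 55.3% in TAZ-CAMTA1 against TAZ4A. Non-overlap was thus common among all genes, and nothing is read from it for the 5.

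**Figure D1:**
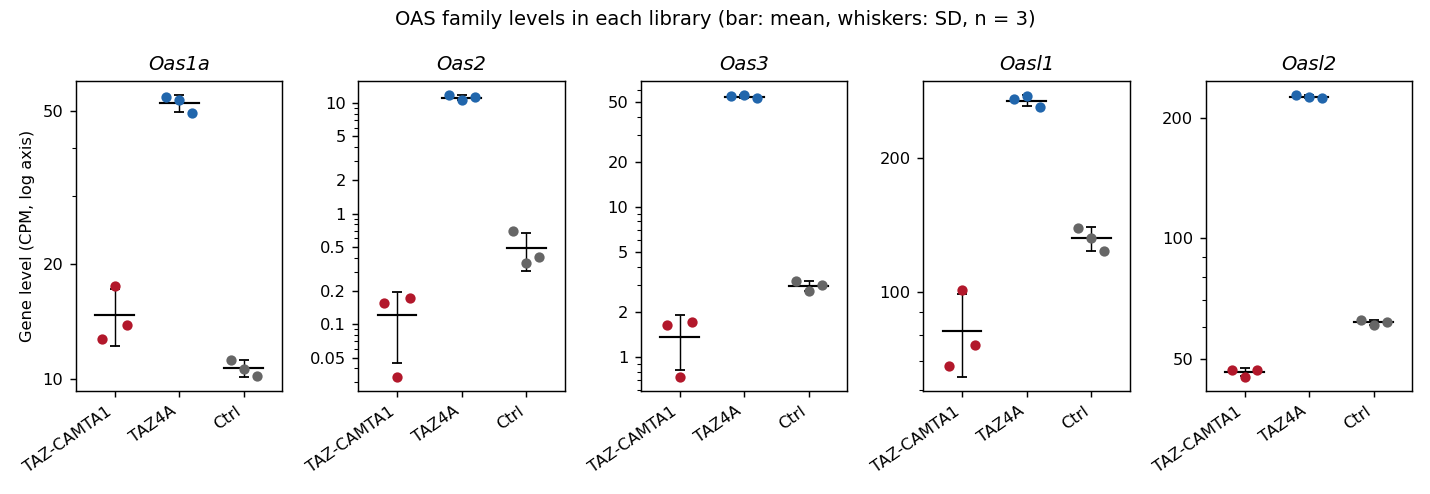
CPM of each OAS gene in each library on log axes, with TAZ-CAMTA1 in red, TAZ4A in blue and Ctrl in grey (points: libraries, bar: mean, whiskers: SD, n = 3). The TAZ4A points lie above both other groups in every panel, and the TAZ-CAMTA1 points lie below Ctrl except for Oas1a, where they lie between 12.7 and 17.5 CPM and Ctrl between 10.2 and 11.2 CPM.

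Oas3, the largest synthetase of the family and in human cells the main source of 2-5A, read 1.64, 0.739 and 1.70 CPM in TAZ-CAMTA1 libraries, 54.6, 55.3 and 52.9 CPM in libraries labelled TAZ4A and 3.20, 2.75 and 3.01 CPM in Ctrl libraries. The mean in TAZ4A libraries was 18.2 times the Ctrl mean, and the TAZ-CAMTA1 mean was 0.455 times it. The low TAZ-CAMTA1 library is replicate 2, with 22 reads, and the mean of the other two was 1.67 CPM, which still lies below every Ctrl library. The fitted log2 fold change, on the log2(CPM + 0.5) scale that understates differences of weakly expressed genes, was -0.95 ± 0.20 (SE) for TAZ-CAMTA1 against Ctrl, 3.98 ± 0.20 for TAZ4A against Ctrl and -4.93 ± 0.20 for TAZ-CAMTA1 against TAZ4A.

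Oas2, a synthetase of intermediate size, was the rarest transcript. It was represented by 5, 1 and 4 reads in the TAZ-CAMTA1 libraries, 380, 363 and 367 reads in the libraries labelled TAZ4A and 15, 12 and 13 reads in the Ctrl libraries. As levels these are 0.154, 0.0336 and 0.174 CPM in TAZ-CAMTA1 libraries, 11.8, 10.6 and 11.3 CPM in TAZ4A libraries and 0.696, 0.359 and 0.407 CPM in Ctrl libraries. The TAZ4A mean was 23.0 times the Ctrl mean. Against the TAZ-CAMTA1 group, whose 3 libraries together hold 10 Oas2 reads, the size of the difference is poorly fixed: its log2 fold change was -4.24 ± 0.15 with 0.5 CPM added and ranged between -6.58 and -2.64 over the alternative settings. Its difference between TAZ-CAMTA1 and Ctrl (-0.66 ± 0.15) likewise ranged between -1.97 and -0.23, always lower in TAZ-CAMTA1. Oas2 passed the filter on low values, at least 0.5 CPM in 3 libraries, only through the TAZ4A libraries, and the other 4 genes passed it in every group.

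Oas1a, a small synthetase that makes 2-5A, was the only member higher in TAZ-CAMTA1 than in Ctrl. It read 12.7, 17.5 and 13.9 CPM in TAZ-CAMTA1 libraries, 54.5, 53.4 and 49.6 CPM in libraries labelled TAZ4A and 11.2, 10.6 and 10.2 CPM in Ctrl libraries. The TAZ-CAMTA1 mean was 1.38 times the Ctrl mean (log2 fold change 0.43 ± 0.12), and the mean without replicate 2, the highest of the 3, was 13.3 CPM. Over all alternatives the log2 fold change ranged between 0.30, without TAZ-CAMTA1 replicate 2, and 0.53, without TAZ-CAMTA1 replicate 1. The difference of TAZ4A from Ctrl was 2.25 ± 0.12 and that of TAZ-CAMTA1 from TAZ4A was -1.81 ± 0.12.

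Oasl2, the member of the OAS-like branch that keeps synthetase activity, had CPM values close together within each group. It read 46.8, 45.1 and 47.0 CPM in TAZ-CAMTA1 libraries, 227, 226 and 223 CPM in libraries labelled TAZ4A and 62.5, 60.7 and 61.9 CPM in Ctrl libraries. The TAZ4A mean was 3.65 times the Ctrl mean and the TAZ-CAMTA1 mean was 0.750 times it. The fitted log2 fold changes were -0.41 ± 0.06 for TAZ-CAMTA1 against Ctrl, 1.86 ± 0.06 for TAZ4A against Ctrl and -2.27 ± 0.06 for TAZ-CAMTA1 against TAZ4A.

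Oasl1, the inactive OAS-like protein that binds Irf7 mRNA, was the most abundant of the 5 and differed least from Ctrl in the libraries labelled TAZ4A. It read 68.0, 101 and 75.9 CPM in TAZ-CAMTA1 libraries, 271, 277 and 261 CPM in TAZ4A libraries and 140, 133 and 124 CPM in Ctrl libraries. The highest TAZ-CAMTA1 library is again replicate 2, and the mean of the other two was 72.0 CPM. Its log2 fold changes were -0.71 ± 0.14 for TAZ-CAMTA1 against Ctrl, 1.03 ± 0.14 for TAZ4A against Ctrl and -1.74 ± 0.14 for TAZ-CAMTA1 against TAZ4A.

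**Figure D2:**
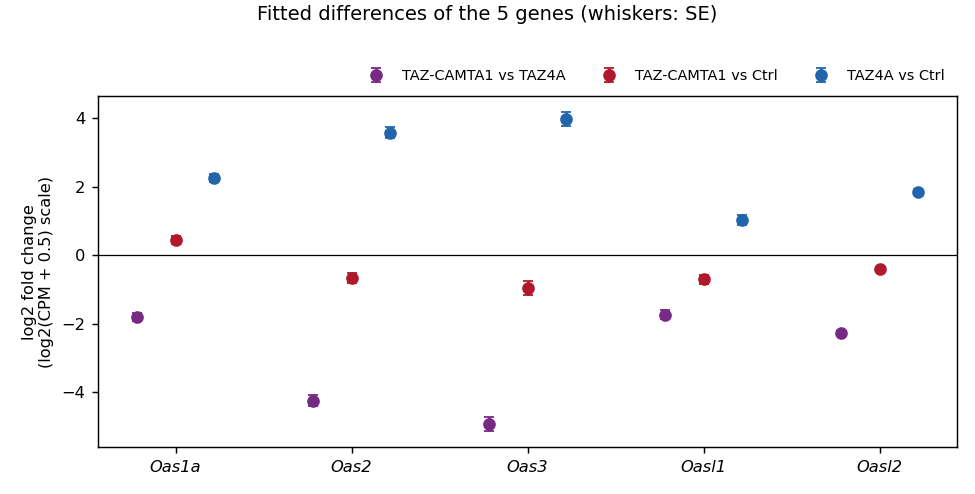
Fitted log2 fold change of each OAS gene on the log2(CPM + 0.5) scale for the 3 comparisons (points: estimate, whiskers: SE, 9 libraries in one fit). Oas3 spans the widest range, between -4.93 for TAZ-CAMTA1 against TAZ4A and 3.98 for TAZ4A against Ctrl, and Oas1a is the only gene above 0 for TAZ-CAMTA1 against Ctrl, at 0.43.

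With limma-trend and Benjamini-Hochberg adjustment over all 12350 tested genes (threshold 0.05), 1 of the 5 was counted as higher and 4 as lower in TAZ-CAMTA1 than in Ctrl, where 16.8% of all tested genes were higher and 15.3% lower. All 5 were counted as higher in TAZ4A than in Ctrl, where 13.2% of all tested genes were higher and 11.7% lower. All 5 were counted as lower in TAZ-CAMTA1 than in TAZ4A, where 18.5% of all tested genes were lower and 19.4% higher. Oas1a, the 1 counted as higher in TAZ-CAMTA1 than in Ctrl, was not so counted after quantile normalization or with the 6 compared libraries alone. Nor was it without Ctrl replicate 2 or Ctrl replicate 3. With those 6 libraries, where Oas2 did not pass the filter, 3 were counted as lower. Since these contrasts chose the genes, nothing is read from these counts. The median log2 fold change of the 5 was -0.66 in TAZ-CAMTA1 against Ctrl, 2.25 in TAZ4A against Ctrl and -2.27 in TAZ-CAMTA1 against TAZ4A. The median of all tested genes was -0.03 in TAZ-CAMTA1 against Ctrl, -0.01 in TAZ4A against Ctrl and -0.02 in TAZ-CAMTA1 against TAZ4A. Each group enters a pair of these comparisons, so they are not independent.

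Levels can be set against each other between genes only per length, as TPM (reads scaled to gene length and then to the library). On that scale the order was the same in every library of every group: Oasl1, then Oasl2, Oas1a, Oas3 and Oas2, and no neighbours in that order overlapped within a group. The summed TPM of the 11 OAS family genes in the table was 155 ± 7.04 in TAZ-CAMTA1, 643 ± 13.8 in TAZ4A and 227 ± 9.44 in Ctrl libraries (SD, n = 3 each). Oasl1 made up 57.0 ± 3.78% of this sum in TAZ-CAMTA1, 49.7 ± 0.385% in TAZ4A and 66.6 ± 0.993% in Ctrl libraries. Thus Oasl1, which lacks synthetase activity, made up the largest share of OAS family message in each group. Oas3 made up 0.450 ± 0.215% in TAZ-CAMTA1, 4.50 ± 0.0262% in TAZ4A and 0.680 ± 0.0489% in Ctrl libraries, while Oas1a made up 11.6 ± 0.297% in TAZ-CAMTA1, 10.9 ± 0.287% in TAZ4A and 6.07 ± 0.0361% in Ctrl libraries. The share of Oas3 was therefore larger in TAZ4A than in either other group, and that of Oas1a was larger under both inserts than in Ctrl.

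**Figure D3:**
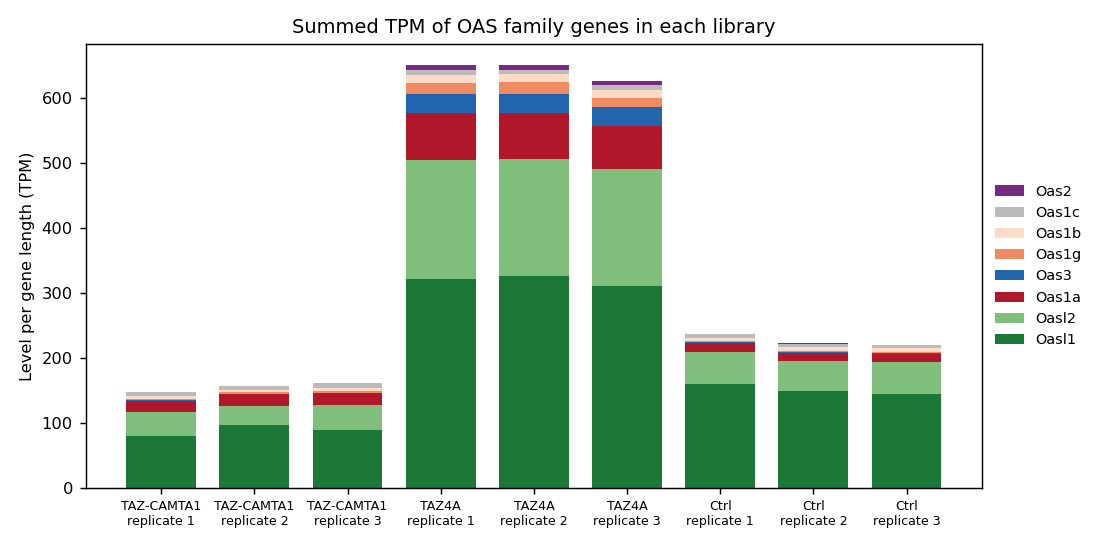
Summed TPM of 8 OAS family genes in each of the 9 libraries, stacked by gene (Oas1d, Oas1e and Oas1f, at 7 reads or fewer per group, are not drawn). The TAZ4A bars stand above both other groups, near their mean of 643 TPM, and the 2 OAS-like genes fill most of every bar.

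Because Oas1a and Oas1g share much of their sequence, spliced reads were used to ask how far the Oas1a values depend on reads that map to both. Over the 9 libraries, 19.0% of reads across annotated Oas1a introns mapped to several places, against 49.6% for Oas1g and 4.90% to 8.02% for Oas2, Oas3, Oasl1 and Oasl2. The shared reads of Oas1a sat on its first intron (chr5:120905885-120907293), where 785 reads mapped to several places and 465 to 1 place. Introns 2 to 6 of Oas1a were crossed nearly always by reads with 1 place, with 75 of 2424 crossings mapped to several places in TAZ4A libraries. Counting only uniquely mapped crossings of those introns, Oas1a read 19.2, 35.7 and 19.4 RPM (reads scaled to all unique spliced reads of the library) in TAZ-CAMTA1 libraries, 88.5, 80.9 and 75.9 in libraries labelled TAZ4A and 15.0, 17.0 and 14.9 in Ctrl libraries. The groups again did not overlap, the TAZ4A mean was 5.24 times the Ctrl mean and the TAZ-CAMTA1 mean was 1.59 times it. How many genes show such non-overlap by this measure was not counted, so nothing is read from it. The TAZ-CAMTA1 mean leans on replicate 2, at 35.7 RPM against 19.2 and 19.4 in the others of its group. In that library 30.6% of spliced reads mapped to several places, against 20.8% to 22.2% in the others. A read that spans several introns is counted at each of them.

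**Figure D4:**
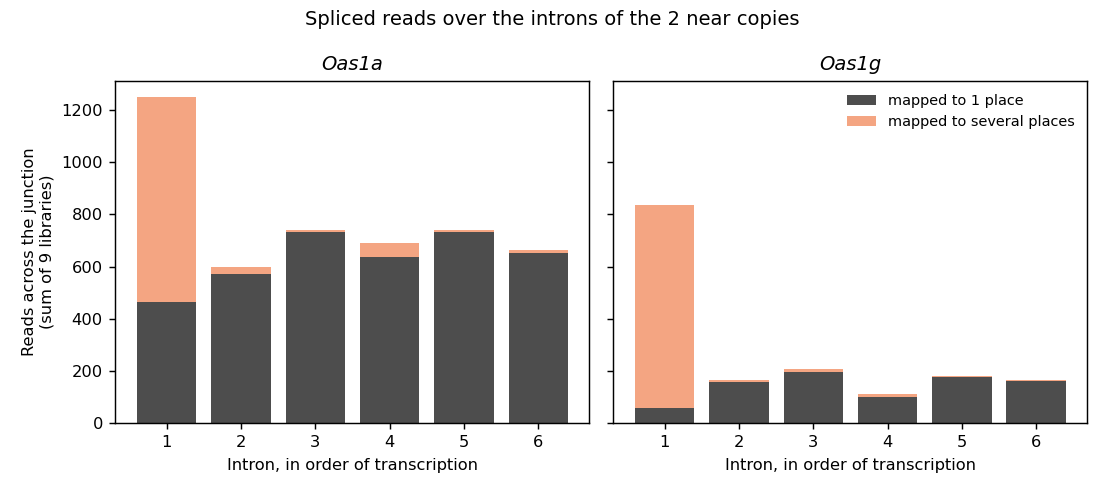
Reads across each of the 6 introns of Oas1a and of its near copy Oas1g, summed over the 9 libraries, with reads mapped to 1 place in dark grey and reads mapped to several places in orange. The first intron holds the shared reads of both genes, 785 in Oas1a and 780 in Oas1g.

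For the other 4 genes, unique spliced reads gave TAZ4A means over Ctrl means of 19.5 for Oas2, 16.9 for Oas3, 2.17 for Oasl1 and 3.58 for Oasl2. The corresponding ratios of the CPM values were 23.0 for Oas2, 18.2 for Oas3, 2.04 for Oasl1 and 3.65 for Oasl2. Spliced reads are part of the reads behind the CPM values, so the ratios are not independent. The Oas2 ratio of spliced reads rests on 5, 0 and 4 unique reads in the Ctrl libraries, so its size is poorly fixed. By this measure TAZ-CAMTA1 and Ctrl overlapped for Oas3, at 1.38, 0.135 and 1.06 RPM against 2.18, 2.35 and 1.34 RPM. They also overlapped for Oas2, at 0.106, 0 and 0 RPM against 0.780, 0 and 0.413 RPM. For Oasl1 and Oasl2 they did not, and how common that is was not counted.

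Over the 9 libraries the 5 genes moved closely together. Pearson's r of log2(CPM + 0.5) was highest for Oas2 and Oasl2, at 0.997, and lowest for Oas1a and Oasl1, at 0.827. Among 11549 other genes with a mean of at least 1 CPM, the 5 most like the mean profile of the members were Msln (0.999), Sema3c (0.998), Usp18 (0.997), Ces2e (0.997) and Fst (0.997). Usp18, which removes ISG15 from proteins and dampens interferon receptor signalling, is itself a known interferon target. Fst, which encodes the activin-binding protein follistatin, averaged 74.5 ± 3.36 CPM in TAZ-CAMTA1, 810 ± 21.9 CPM in TAZ4A and 92.6 ± 1.83 CPM in Ctrl libraries (SD, n = 3 each). The correlations are over 9 libraries in 3 groups, so a large difference of 1 group is enough to make them high.

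The rest of the 2-5A pathway did not move as a block. Of 10 genes described here, 9 were in the table and 6 were tested. Oas1d, Oas1e and Oas1f were too low to test, with 7, 1 and 4 reads in the TAZ4A libraries together, and the level of Oas1h was not analysed here. In TAZ-CAMTA1 against Ctrl, 1 was higher and 2 were lower. In TAZ4A against Ctrl, 2 were higher and 0 lower, and in TAZ-CAMTA1 against TAZ4A, 0 were higher and 4 lower. Of all tested genes, 16.8% were higher and 15.3% lower in TAZ-CAMTA1 against Ctrl, and 13.2% and 11.7% in TAZ4A against Ctrl. The shares in TAZ-CAMTA1 against TAZ4A were 19.4% higher and 18.5% lower.

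Oas1g, the near copy of Oas1a, read 1.57, 2.35 and 1.74 CPM in TAZ-CAMTA1 libraries, 14.0, 13.7 and 11.9 CPM in libraries labelled TAZ4A and 1.35, 0.867 and 1.10 CPM in Ctrl libraries. Its TAZ4A level was above Ctrl by 3.10 ± 0.16 on the log2 scale (limma-trend adjusted p = 2.52e-06), with the caution that 49.6% of its spliced reads also map elsewhere. Its uniquely mapped spliced reads numbered 83 in TAZ-CAMTA1, 712 in TAZ4A and 44 in Ctrl libraries. The higher Oas1g level in TAZ-CAMTA1 than in Ctrl (0.57 ± 0.16, adjusted p = 0.0238) was lost without Ctrl replicate 2 or Ctrl replicate 3 and after quantile normalization, with adjusted p-values between 0.00367 and 0.231 over the alternatives. Oas1b, known in mouse for resistance to flaviviruses and without synthetase activity, rose in TAZ4A against Ctrl by 1.09 ± 0.10 (adjusted p = 9.87e-05) and did not pass the test in TAZ-CAMTA1 against Ctrl (-0.07 ± 0.10). Oas1c passed in no comparison, with log2 fold changes between -0.03 and 0.26.

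Among the other genes of the 2-5A list, Abce1, a ribosome recycling factor, fell in TAZ-CAMTA1 against Ctrl (-0.61 ± 0.15, limma-trend adjusted p = 0.0172) and against TAZ4A (-0.94 ± 0.15, adjusted p = 0.00179). The first of these was lost without Ctrl replicate 2 or Ctrl replicate 3 and with TPM. Pde12, a phosphodiesterase that degrades 2-5A, fell in TAZ-CAMTA1 against TAZ4A by 0.48 on the log2 scale (SE 0.09, adjusted p = 0.00266). Its call against Ctrl (adjusted p = 0.0471) was lost under 15 of 21 alternatives. Akap7, which has 2-5A-degrading activity, passed in no comparison.

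The sensors of foreign nucleic acid were, where they differed, lower in TAZ-CAMTA1 and higher in TAZ4A, with Dhx58 as the exception in TAZ-CAMTA1. All 10 listed genes were tested: 1 was higher and 4 lower in TAZ-CAMTA1 against Ctrl, 4 were higher and 0 lower in TAZ4A against Ctrl, and 0 were higher and 8 lower in TAZ-CAMTA1 against TAZ4A. Beside these counts, 16.8% of all tested genes were higher and 15.3% lower in TAZ-CAMTA1 against Ctrl, and 13.2% and 11.7% in TAZ4A against Ctrl. For TAZ-CAMTA1 against TAZ4A the shares were 19.4% higher and 18.5% lower. Ifih1, which encodes the RNA helicase sensor MDA5, read 28.4, 21.9 and 27.5 CPM in TAZ-CAMTA1 libraries, 91.8, 90.3 and 97.0 CPM in libraries labelled TAZ4A and 38.5, 37.0 and 39.6 CPM in Ctrl libraries. It fell in TAZ-CAMTA1 (-0.57 ± 0.10, limma-trend adjusted p = 0.00354) and rose in TAZ4A (1.27 ± 0.10, adjusted p = 3.73e-05), both against Ctrl. Zbp1, the Z-nucleic acid sensor, rose in TAZ4A against Ctrl by 1.57 ± 0.19 (limma-trend adjusted p = 0.000391). Its lower level in TAZ-CAMTA1 (-0.75 ± 0.19, limma-trend adjusted p = 0.0163) was lost as a call without Ctrl replicate 2 or Ctrl replicate 3. That difference rests on 10, 13 and 1 reads in TAZ-CAMTA1 and 14, 29 and 24 in Ctrl libraries. Over the alternatives it ranged between -1.44 and -0.29.

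Dhx58, which encodes the helicase LGP2, rose under both inserts, by 0.31 ± 0.08 in TAZ-CAMTA1 (adjusted p = 0.0159) and by 1.50 ± 0.08 in TAZ4A (adjusted p = 2.19e-06). The smaller of these was lost without Ctrl replicate 2 or Ctrl replicate 3 and after quantile normalization. Adar, which edits double-stranded RNA, rose in TAZ4A by 0.51 ± 0.11 (adjusted p = 0.00898, and 0.0558 with TPM) and fell in TAZ-CAMTA1 by 0.40 (SE 0.11, adjusted p = 0.0217), the fall being lost without Ctrl replicate 1 or Ctrl replicate 3 and with TPM. Tlr3, the endosomal receptor of double-stranded RNA, fell in TAZ-CAMTA1 by 0.69 (SE 0.15, adjusted p = 0.00882). Eif2ak2, the kinase PKR, passed only in TAZ-CAMTA1 against TAZ4A (-1.32 ± 0.26, adjusted p = 0.00463). So did Ddx58, the sensor RIG-I (-0.73 ± 0.14), and Mb21d1, the DNA sensor cGAS (-0.73 ± 0.21), the Mb21d1 call being lost when any single TAZ4A replicate was left out and its value being -0.45 without TAZ-CAMTA1 replicate 2. Eif2ak2 read 194, 191 and 203 CPM in TAZ4A and 115, 112 and 126 CPM in Ctrl libraries (0.74 ± 0.26, limma-trend adjusted p = 0.0735). Ddx58 read 179, 169 and 175 CPM in TAZ4A and 130, 130 and 136 CPM in Ctrl libraries (0.40 ± 0.14, adjusted p = 0.0755). The SE, shared by all comparisons, includes TAZ-CAMTA1 replicate 2, where Eif2ak2 read 47.3 CPM against 103 and 98.2 CPM in the others of its group. Mavs and Tmem173, the adaptor proteins MAVS and STING, passed in no comparison.

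Of 15 interferon ligands and signalling genes, 12 were in the table and 11 were tested. In TAZ-CAMTA1 against Ctrl 5 were higher and 4 lower, in TAZ4A against Ctrl 5 were higher and 1 lower, and in TAZ-CAMTA1 against TAZ4A 5 were higher and 4 lower. The shares of all tested genes were 16.8% higher and 15.3% lower in TAZ-CAMTA1 against Ctrl, and 13.2% and 11.7% in TAZ4A against Ctrl. They were 19.4% higher and 18.5% lower in TAZ-CAMTA1 against TAZ4A. The ligand Ifnb1 was at the edge of detection, with 4 reads in the TAZ-CAMTA1 libraries together, 7 in the libraries labelled TAZ4A and 4 in the Ctrl libraries. The levels of Ifna1, Ifna4 and Ifng were not analysed here. The level of interferon in the medium was not measured.

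Both receptor chains were higher in TAZ-CAMTA1 than in Ctrl, unlike most OAS genes. Ifnar1 rose in TAZ-CAMTA1 (0.60 ± 0.10, limma-trend adjusted p = 0.00192) and was lower in TAZ4A (-0.43 ± 0.10, adjusted p = 0.0112), the second not without TAZ4A replicate 2, Ctrl replicate 1 or Ctrl replicate 3, nor with TPM. Ifnar2 rose in TAZ-CAMTA1 by 0.84 ± 0.12 (adjusted p = 0.00108), and its TAZ4A value was 0.05 ± 0.12. Tyk2 was higher in TAZ-CAMTA1 by 0.43 ± 0.11 (adjusted p = 0.0156), not without Ctrl replicate 2 or with TPM (adjusted p = 0.139), and Jak1 passed in no comparison.

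Irf7 and Irf9, both known to be interferon-responsive, fell in TAZ-CAMTA1 and rose in TAZ4A. Irf7, a transcription factor that amplifies interferon responses, read 17.8, 26.4 and 17.6 CPM in TAZ-CAMTA1 libraries, 130, 136 and 122 CPM in libraries labelled TAZ4A and 37.3, 36.6 and 35.3 CPM in Ctrl libraries. Its log2 fold change from Ctrl was -0.83 ± 0.15 in TAZ-CAMTA1 (limma-trend adjusted p = 0.00317) and 1.82 ± 0.15 in TAZ4A (adjusted p = 3.96e-05). For Irf9 it was -0.52 ± 0.06 in TAZ-CAMTA1 (adjusted p = 0.000459) and 0.55 ± 0.06 in TAZ4A (adjusted p = 0.000294).

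Stat2 rose in TAZ4A by 0.88 ± 0.10 (adjusted p = 0.000371), and its lower level in TAZ-CAMTA1 (-0.37 ± 0.10, adjusted p = 0.0271) was lost without TAZ4A replicate 1, without any of the 3 Ctrl replicates and with TPM, and was -0.24 without TAZ-CAMTA1 replicate 2. Usp18 read 7.04, 6.75 and 7.41 CPM in TAZ-CAMTA1 libraries, 76.5, 74.2 and 74.6 CPM in libraries labelled TAZ4A and 9.15, 8.25 and 7.99 CPM in Ctrl libraries. It rose in TAZ4A by 3.08 ± 0.08 (adjusted p = 4.93e-08), a size within the range of the OAS genes. Its call in TAZ-CAMTA1 (-0.24 ± 0.08, adjusted p = 0.0449) was lost under 15 of 21 alternatives. Irf1, in contrast, rose under both inserts, by 0.66 ± 0.08 in TAZ-CAMTA1 (adjusted p = 0.000341) and by 0.40 ± 0.08 in TAZ4A (adjusted p = 0.00477).

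Irf3, the constitutive factor downstream of the sensors, was higher in TAZ-CAMTA1 than in Ctrl (0.67 ± 0.17, adjusted p = 0.0180), not without Ctrl replicate 1 or Ctrl replicate 3. Without TAZ-CAMTA1 replicate 2 the Irf3 difference was 0.44 from Ctrl and 0.38 from TAZ4A. In TAZ-CAMTA1 against TAZ4A, Irf1 (0.26 ± 0.08) and Irf3 (0.61 ± 0.17) were called higher, but each call was lost when any single TAZ4A replicate was left out, and for Irf1 also without TAZ-CAMTA1 replicate 1 and with TPM. Socs1, a feedback inhibitor of JAK kinases, passed in no comparison.

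**Figure D5:**
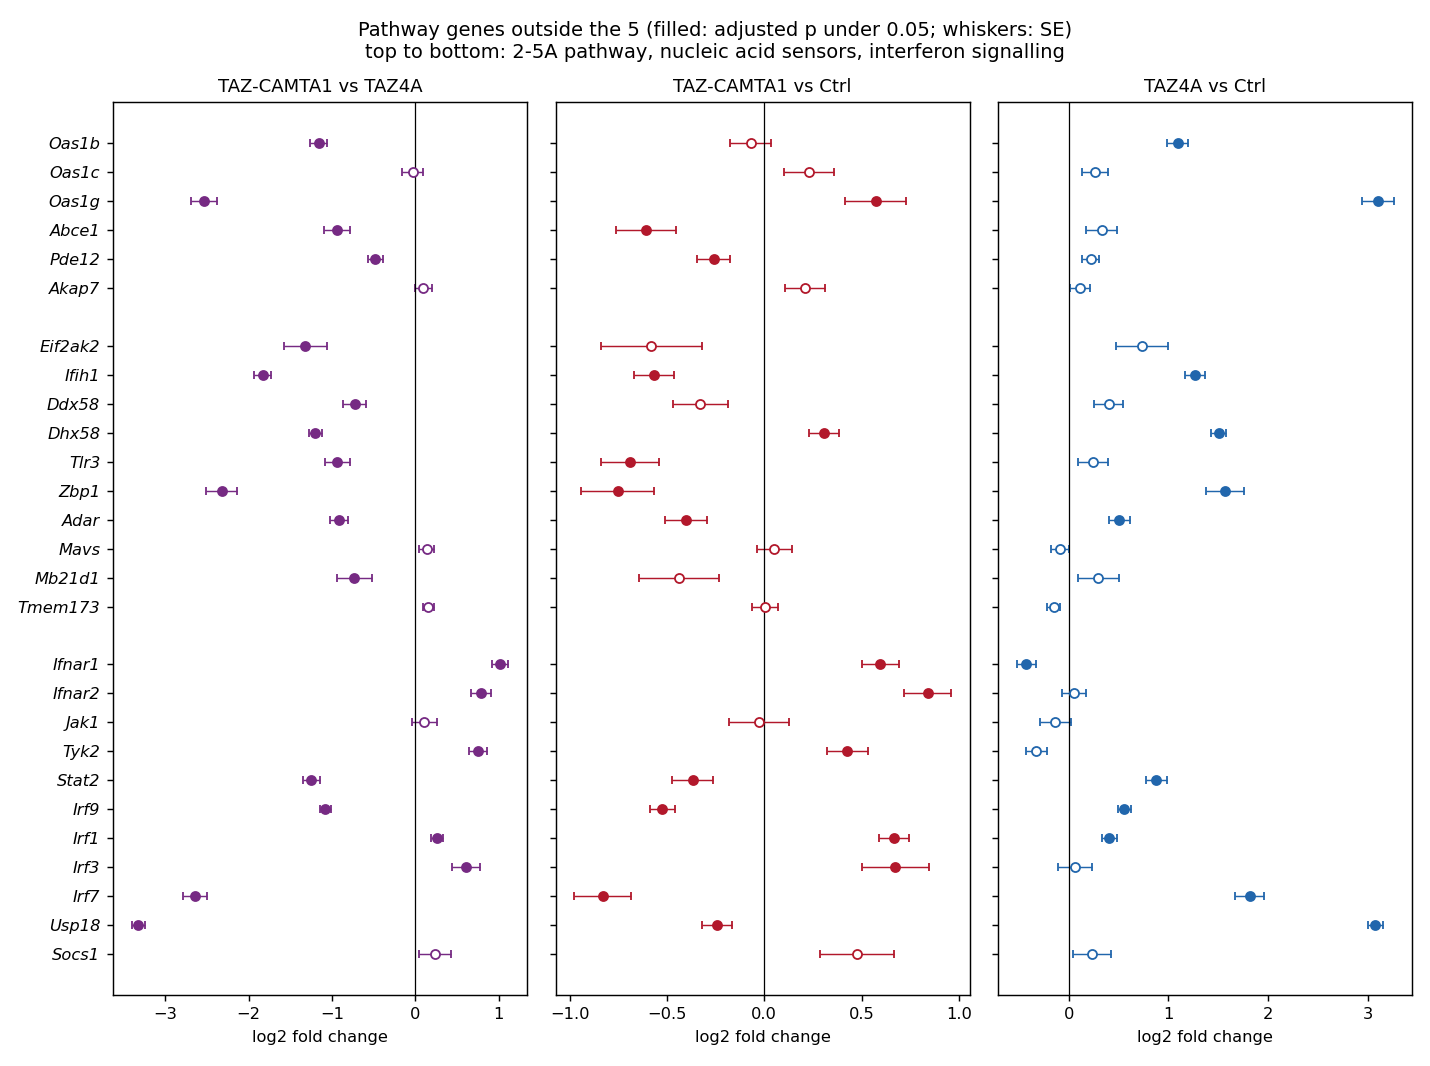
Log2 fold change on the log2(CPM + 0.5) scale of 27 tested pathway genes outside the 5 OAS genes, by comparison, with separate horizontal scales (filled: limma-trend adjusted p under 0.05, whiskers: SE). In TAZ-CAMTA1 against TAZ4A 16 genes are lower, Usp18 the farthest at -3.32, and 5 are higher, among them both receptor chains.

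Over the 3 pathway lists together, 27 of 35 genes were tested. In TAZ-CAMTA1 against Ctrl 7 were higher and 10 lower, with a median log2 fold change of -0.07. In TAZ4A against Ctrl 11 were higher and 1 lower, with a median of 0.33. In TAZ-CAMTA1 against TAZ4A 5 were higher and 16 lower, with a median of -0.73. Of all tested genes, 16.8% were higher and 15.3% lower in TAZ-CAMTA1 against Ctrl, and 13.2% and 11.7% in TAZ4A against Ctrl. The shares in TAZ-CAMTA1 against TAZ4A were 19.4% higher and 18.5% lower. Beside the 17 called in TAZ-CAMTA1 against Ctrl stand 11 with TPM, 7 with the 6 compared libraries alone, 9 without Ctrl replicate 2 and 8 without Ctrl replicate 3. The calls lost with the 6 libraries include Oas1g, Abce1, Dhx58, Zbp1, Adar, Tyk2, Stat2 and Irf3. Beside the 12 called in TAZ4A against Ctrl stand 22 without TAZ-CAMTA1 replicate 2 and 22 with the 6 compared libraries alone. Of the 35 genes, 27 had a RefSeq promoter window and 9 of these held the ISRE letters, which occur in 3.43% of all windows. Among the 9, Oas1g, Eif2ak2, Ifih1, Ddx58 and Stat2 were called in at least 1 comparison. Oas1c and Socs1 were called in none, and the levels of Ifna1 and Ifna4 were not analysed. The called genes Irf7, Irf9, Irf1, Adar and Tlr3 held no ISRE letters in their windows.

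Like the endothelial markers, markers of other cell types were not level across the groups. Of 5 fibroblast and mural markers the summed level was 9.71 to 15.8 CPM in TAZ-CAMTA1, 15.3 to 16.6 CPM in TAZ4A and 5.23 to 5.73 CPM in Ctrl libraries, and Rgs5 had 0 reads under both inserts and 1 read in Ctrl. Dcn had 1 read in the TAZ-CAMTA1 libraries together, 2.07, 1.99 and 2.06 CPM in libraries labelled TAZ4A and 0 reads in every Ctrl library. Of 6 pancreas epithelial markers 2 were in the table and their sum was 0.833 to 2.15 CPM in TAZ-CAMTA1, 8.04 to 10.1 CPM in TAZ4A and 0.439 to 0.557 CPM in Ctrl libraries, nearly all of it Krt19. Of 6 leukocyte markers 4 were in the table and their sum was 456 to 704 CPM in TAZ-CAMTA1, 394 to 402 CPM in TAZ4A and 451 to 524 CPM in Ctrl libraries. Almost all of that sum was Cd68, and Ptprc, the pan-leukocyte antigen CD45, had 3 reads in TAZ-CAMTA1, 5 in TAZ4A and 7 in Ctrl libraries. The part of these markers in the OAS differences was not tested. In bulk RNA a larger share of cells expressing a gene and more RNA per cell cannot be told apart.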

How the data were processed

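Poly-A RNA of 9 MS1 cultures (3 groups of 3) was sequenced. Per the submitters' processing notes, bcl2fastq, FastQC, STAR, featureCounts, edgeR and mm10 were used, versions not given in the sources used here. The authors deposited gene values named CPM, which are a signal: whole reads over a scaled library size, so column sums ran between 976997 and 1028367. Whole reads were recovered for 100% of values (tolerance 0.01). The design had assumed plain CPM, and its test was kept. The deposited TPM values are per gene length. The deposited STAR junction tables hold counts of spliced reads.

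Log2(CPM + 0.5) of genes reaching 0.5 CPM in 3 or more libraries was fitted with limma-trend (limma 3.58.1, R 4.3.3), robust, 9 libraries in one fit, Benjamini-Hochberg adjustment over all tested genes. The test called 3966 genes in TAZ-CAMTA1 against Ctrl, 3077 in TAZ4A against Ctrl and 4684 in TAZ-CAMTA1 against TAZ4A, and edgeR 4.0.16 quasi-likelihood on recovered reads called 3942, 3078 and 4674 in these comparisons. DESeq2 1.42.0 was another alternative. The fit was tested on simulated counts, where it recovered 88.1% of genes changed 1.5 times and 100% of those changed 2 or 4 times. All simulated libraries had the same spread and none stood apart, so this does not cover the effect of TAZ-CAMTA1 replicate 2. Members and lists were chosen with earlier results of these data known. Named genes are the 5 members, listed pathway genes (2 of them are not reported here and enter no list count), construct genes and the 5 genes most correlated with the members' mean profile. Near copies were found as shared 50-base stretches of GENCODE vM21 exons. Sequences are from RefSeq (GRCm38.p6). Intervals cover counting error only.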

Additional observations from a re-analysis of the deposited data

How the results depend on the processing

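Every log2 fold change of the 5 OAS genes kept its sign under every alternative that gave a value, and no result was reversed. With the 6 compared libraries alone, called genes numbered 2424 in TAZ-CAMTA1 against Ctrl and 7176 in TAZ4A against Ctrl, and pathway genes called 7 in TAZ-CAMTA1 against Ctrl and 22 in TAZ4A against Ctrl. With TPM, 11 pathway genes were called in TAZ-CAMTA1 against Ctrl. The OAS median in TAZ-CAMTA1 against Ctrl was -0.40 with 2 CPM added and -0.48 with TPM. In TAZ4A against Ctrl it was 2.10 with 2 CPM added, 2.18 after quantile normalization, and 2.31 each after rescaling to equal sums, with TPM, with edgeR and with DESeq2. Leaving out each library in turn gave 2612 to 7458 called genes, 8 to 21 pathway genes and OAS medians of -0.72 to -0.52 in TAZ-CAMTA1 against Ctrl. It gave 1935 to 7193 genes, 11 to 22 pathway genes and medians of 2.21 to 2.29 in TAZ4A against Ctrl, and 3078 to 7721 genes, 18 to 24 pathway genes and medians of -2.28 to -2.25 in TAZ-CAMTA1 against TAZ4A. The highest counts were those without TAZ-CAMTA1 replicate 2. Without Ctrl replicate 3 the count was 2612 in TAZ-CAMTA1 against Ctrl, with 8 pathway genes, and without Ctrl replicate 2 it was 2774, with 9. In TAZ4A against Ctrl it was 1935, 1979 and 1976 without TAZ4A replicates 1, 2 and 3, and in TAZ-CAMTA1 against TAZ4A it was 3078 without TAZ4A replicate 3. After rescaling to equal sums, 1967 genes were higher and 1106 lower in TAZ4A against Ctrl (64.0% higher), against 1630 and 1447 (53.0%) as deposited. With TPM the median of all genes in TAZ-CAMTA1 against TAZ4A was -0.13, against -0.02 with CPM, and the OAS median relative to it was -2.25 with either. With a replicate block, 3881, 2890 and 4619 genes and 15, 12 and 21 pathway genes were called in the order of comparisons above. Of same-numbered pairs of libraries, 6 of 9 deviated together (correlation over 0.1), against 3 of 18 differently numbered pairs. The 3 pairs numbered 1 did not, so the numbers were not taken to pair the samples. The causes were not tested. Depth limits Oas2, with 10 reads in TAZ-CAMTA1 and 40 in Ctrl libraries.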

Other observations

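Spliced reads also show which exons of the OAS-like genes were joined. The exons below were singled out after their values were seen, so the shares are described and not tested. Exon 2 of Oasl2 (transcript Oasl2-201, chr5:114899742-114900030, GRCm38, 289 bases) is skipped by the junction over chr5:114897863-114901239, an annotated junction. Of unique reads leaving exon 1, the skipping reads were 2 of 34, 0 of 12 and 0 of 41 in TAZ-CAMTA1 libraries, 9 of 181, 3 of 201 and 11 of 175 in libraries labelled TAZ4A and 3 of 32, 8 of 68 and 6 of 55 in Ctrl libraries. The mean share was 1.96 ± 3.40% in TAZ-CAMTA1, 4.25 ± 2.48% in TAZ4A and 10.7 ± 1.21% in Ctrl libraries (SD, n = 3 each). Every library of both insert groups lay below every Ctrl library, while TAZ-CAMTA1 and TAZ4A overlapped. How often groups lie apart in this way at other exons was not counted, so nothing is read from it. The TAZ-CAMTA1 libraries together held 2 skipping reads of 87, too few to fix their share. The lowest Ctrl library, with 9.38%, has a Wilson 95% interval of 3.24% to 24.2%, so single libraries are imprecise.

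Exon 5 of Oasl1 (transcript Oasl1-201, chr5:114932723-114932964, 242 bases) showed the same order of Ctrl against the inserts at a lower level. Its skipping reads summed to 0 of 201 in TAZ-CAMTA1, which allows a share of up to 1.49%, 4 of 900 in TAZ4A and 9 of 361 in Ctrl libraries, 6 of the 9 being from Ctrl replicate 2. Without that library the difference from Ctrl was -1.25 percentage points in TAZ-CAMTA1 and -0.813 in TAZ4A, against -2.40 and -1.96 with it. The mean share was 0.438 ± 0.142% in TAZ4A and 2.40 ± 2.00% in Ctrl libraries. Measuring either exon at its far end instead of its near end left the direction of each difference as it was.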
